A study of Homo sapiens with 2 samples.

Results

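Long noncoding RNA (lncRNA) genes often lie close to a protein-coding gene and share its open promoter, so that accessibility at the lncRNA cannot be separated from that of its neighbour. The regions described here are the promoters of lncRNA genes that stand apart. They are the ATAC-seq peaks on chromosomes 1 to 22 that reach to within 1 kb of a GENCODE lncRNA gene's transcription start site (TSS) and lie more than 5 kb from the TSS of any protein-coding gene. The rule used positions only, and no measured height. It took 2982 peaks of 111987 in the DMSO library and 4265 of 158856 in the MAK683 library. These peaks belonged to 3975 lncRNA genes, which are called members. Of the 18229 lncRNA genes annotated on these chromosomes, 13499 had a TSS more than 5 kb from every coding TSS, and 3944 of those (29.2%, 95% Wilson interval 28.5 to 30.0) had a peak. The other 31 members had a TSS closer to a coding gene but a peak that met the distance rule. Only 1260 members carried a gene symbol, and 2715 were known by an Ensembl identifier alone. Neighbouring lncRNA genes can share a promoter, and 539 members had the same tallest peak as another member. At 226 members (5.69%) the 101 bp at a summit occurred exactly more than once in the genome, and their heights are uncertain. The rule asked only that a peak reach the window, and the summit itself lay within 1 kb of the TSS for 82.4% of members in DMSO and 85.0% in MAK683.

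ATAC-seq uses the Tn5 transposase to cut and tag open chromatin. It was performed on G401, a malignant rhabdoid tumor cell line deficient in SMARCB1, a core subunit of the SWI/SNF chromatin remodeler. The cells were cultured for 3 days with DMSO, the solvent control, or with MAK683, which binds EED and inhibits the Polycomb repressive complex PRC2. The series design gives the MAK683 concentration as 3 μM. Each group was 1 library of 1 cell line without genetic change between the groups, so no test of the treatment was possible. The intervals of heights and of the ratios of single genes cover counting error only. Wilson intervals of shares and order-statistic intervals of medians treat genes as separate units, though some share a peak. None of these intervals measures variation between libraries. The DMSO library held 16598348 tags after filtering and the MAK683 library 18265284. As a check of the cell label, no peak was listed at the promoter or in the body of SMARCB1 in either library.

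PRC2 methylates a lysine in the tail of histone H3, a mark of silent chromatin. The mark is spread broadly over the genome and is also found at CpG-rich promoters of developmental genes. Many lncRNA genes are located beside such genes. Other lncRNA genes are transcribed in nearly all cell types, such as the hosts of small nucleolar RNAs and the nuclear RNAs NEAT1 and MALAT1. Still others are the primary transcripts from which microRNAs are cut. Inhibitors of PRC2 remove the mark, and the accessibility of these promoters was therefore compared between both libraries.

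Promoter windows from 150 bases before the TSS to 49 bases after it show the range of sequence among the members. Each is given 5′ to 3′ on the strand of the gene from GRCh37 (hg19), in lower case with every CpG dinucleotide in capitals. The first 3 had a peak in MAK683 alone, the next 2 were higher in MAK683, and the last was lower.
LINC01933 (chr5:151328982-151329181, plus strand): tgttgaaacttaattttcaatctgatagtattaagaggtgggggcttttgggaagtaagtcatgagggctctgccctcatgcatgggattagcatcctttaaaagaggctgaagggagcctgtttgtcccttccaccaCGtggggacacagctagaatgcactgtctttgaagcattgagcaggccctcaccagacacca
LINC02263 (chr4:118292536-118292735, plus strand): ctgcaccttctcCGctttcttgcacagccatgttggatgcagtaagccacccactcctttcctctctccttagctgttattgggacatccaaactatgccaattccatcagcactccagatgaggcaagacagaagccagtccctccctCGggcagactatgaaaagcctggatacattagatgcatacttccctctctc
MIR181A1HG (chr1:198906501-198906700, minus strand): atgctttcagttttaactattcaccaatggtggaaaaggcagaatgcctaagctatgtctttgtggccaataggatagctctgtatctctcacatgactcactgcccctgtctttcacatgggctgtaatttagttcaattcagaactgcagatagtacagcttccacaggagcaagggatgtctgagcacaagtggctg
LINC01097 (chr4:13535910-13536109, minus strand): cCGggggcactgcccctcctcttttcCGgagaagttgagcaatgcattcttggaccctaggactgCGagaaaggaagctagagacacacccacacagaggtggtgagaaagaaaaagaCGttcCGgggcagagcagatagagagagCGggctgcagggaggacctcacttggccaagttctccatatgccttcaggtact
MEF2C-AS2 (chr5:87971701-87971900, plus strand): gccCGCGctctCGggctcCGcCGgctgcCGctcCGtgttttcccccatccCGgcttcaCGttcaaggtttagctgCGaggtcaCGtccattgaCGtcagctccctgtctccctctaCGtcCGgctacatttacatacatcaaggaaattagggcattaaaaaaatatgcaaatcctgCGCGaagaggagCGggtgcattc
SNHG8 (chr4:119199713-119199912, plus strand): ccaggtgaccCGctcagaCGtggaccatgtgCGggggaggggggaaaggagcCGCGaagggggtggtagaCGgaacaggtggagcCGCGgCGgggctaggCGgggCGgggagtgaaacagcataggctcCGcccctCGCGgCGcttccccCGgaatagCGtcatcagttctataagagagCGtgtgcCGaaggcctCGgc
The 3 windows open in MAK683 alone held 1, 2 and 0 CpG dinucleotides. LINC01097 held 6, MEF2C-AS2 held 17 and SNHG8 held 20.

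More isolated lncRNA promoters had a peak after MAK683 than after DMSO. Among the 13499 genes whose TSS met the distance rule, 2496 had a peak in DMSO (18.5%, 95% Wilson interval 17.8 to 19.2) and 3462 in MAK683 (25.6%, 24.9 to 26.4). Over all 3975 members, 2020 had a peak in both libraries, 1426 in MAK683 alone and 480 in DMSO alone. For the remaining 49, the peak of the other library did not lie more than 5 kb from every coding TSS and was not counted. Members open in MAK683 alone thus made up 35.9% of the members, and those open in DMSO alone 12.1%. Over all 196615 merged regions of both libraries, the same shares were 46.1% and 25%. The members gave 2.97 genes in MAK683 alone for each gene in DMSO alone, against 1.84 regions over the whole data. Regions more than 5 kb from a coding TSS gave 2.11, with shares of 52.2% and 24.7%. The 2 measures differ, since a region was shared only where peaks of both libraries overlapped. A gene needed only a peak of each library near its TSS, and the tallest peaks overlapped at 1817 of the 2020.

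The added promoters were low. The median height of a peak present in MAK683 alone was 9 tags, and 938 of the 1426 had at most 10 tags, when the lowest peak listed in either library had 6 tags. Only 33 of the 1426 had at least 20 tags, as did 13 of the 480 promoters open in DMSO alone. With a height of at least 1 tag per 1000000 tags after filtering (RPM), 1247 members were counted in DMSO and 1037 in MAK683. At 2 RPM there were 490 and 174. Which library had more open members therefore depended on the height asked for. With a -log10 q-value of at least 10, 1387 members had a peak in DMSO and 1319 in MAK683, and 299 were open in DMSO alone against 216 in MAK683 alone. Over all peaks at that threshold, 30111 were listed in DMSO and 25546 in MAK683. With at least 5, the members were 2055 in DMSO and 2184 in MAK683, and all peaks were 70191 and 67865. No matching counts over all regions were made at 1 and 2 RPM, or for 1 library alone at these q-values. Whether the members differ from the whole data there was not tested.

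At the 2020 members with a peak in both libraries, MAK683 peaks were mostly lower. The median log2 height ratio of MAK683 over DMSO was -0.36 (95% order-statistic interval -0.39 to -0.34), from heights in RPM of the tallest peak of each gene in each library. It was -0.33 over the 56828 regions that both libraries shared, so the members sat close to the shift of the whole data. A higher MAK683 peak was seen at 439 members (21.7%) and a lower one at 1581. The background was 23.8% of regions higher. At least 2-fold higher were 23 members (1.14%, background 0.88%), and at least 2-fold lower were 108 (5.35%, background 5.56%). This split depended on the scaling, as ratios centred on the median of all regions gave 75 higher and 24 lower, and raw tags gave 36 and 68. The counting interval of the ratio lay above 0 for 15 members, below 0 for 246 and held 0 for 1759. The background was 0.63% of regions above 0 and 8.32% below 0, and the members were at 0.743% and 12.2%.

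**Figure D1:**
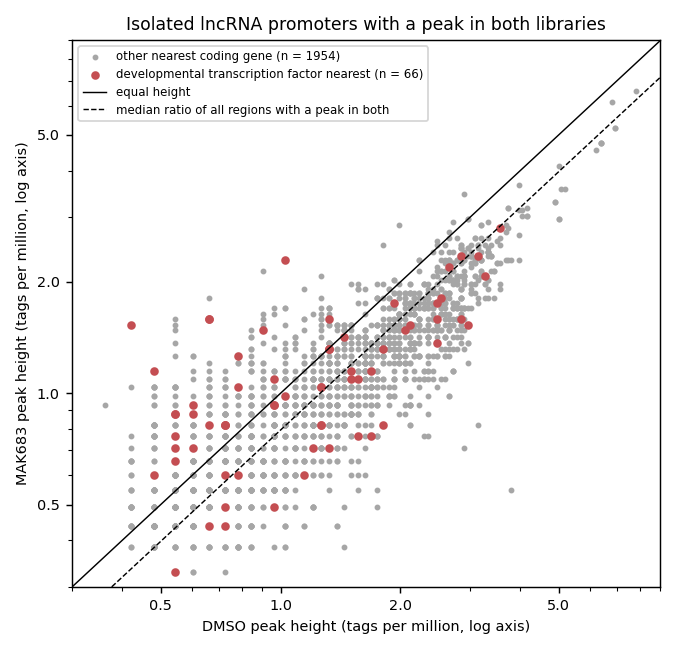
Peak height in DMSO (x axis) against MAK683 (y axis), both in RPM on log axes, for the 2020 isolated lncRNA genes with a peak in both libraries. Each point is a gene, the solid line marks equal height and the dashed line the median log2 ratio of -0.33 of all regions shared by both libraries. Points with a developmental transcription factor as nearest coding gene are red. Of the red points, 2 of 5 with a mean height under 0.6 RPM lie above the solid line, then 12 of 17, 7 of 25, 2 of 9 and 0 of 10 in the classes from 0.6, 0.9, 1.4 and 2 RPM.

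Taller promoters showed the lower ratios. Members with a mean height under 0.6 RPM had a median log2 ratio of -0.14 (n = 239). The value was -0.25 between 0.6 and 0.9 RPM, -0.36 between 0.9 and 1.4 RPM, -0.43 between 1.4 and 2 RPM, and -0.47 from 2 RPM (n = 319). All regions in the same height classes gave -0.14, -0.28, -0.40, -0.49 and -0.50. The ratio was thus lower at taller peaks in the members and in the whole data alike.

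Isolated lncRNA promoters were open less often, and were lower, than promoters beside coding genes. Of the 4730 lncRNA genes with a TSS within 5 kb of a coding TSS, 73.4% had a peak in DMSO and 77.4% in MAK683. For the 19229 protein-coding genes the shares were 70.3% and 75.0%. The number of open genes was 1.06 and 1.07 times as large in MAK683 as in DMSO for these groups, and 1.39 times as large for isolated lncRNA genes. Over all regions it was also 1.39, and over all regions more than 5 kb from a coding TSS it was 1.57. Among genes open in both libraries, the median height was 1.27 RPM in DMSO and 0.985 RPM in MAK683 at isolated lncRNA genes, but 2.05 and 1.48 RPM at lncRNA genes beside a coding gene. The median log2 ratio was -0.47 (-0.49 to -0.46) at the latter and -0.48 (-0.49 to -0.47) at coding genes, with intervals below that of the isolated members. Coding genes had median heights of 1.99 and 1.42 RPM. Taller peaks had lower ratios in the whole data, and what part height has here was not tested.

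**Figure D2:**
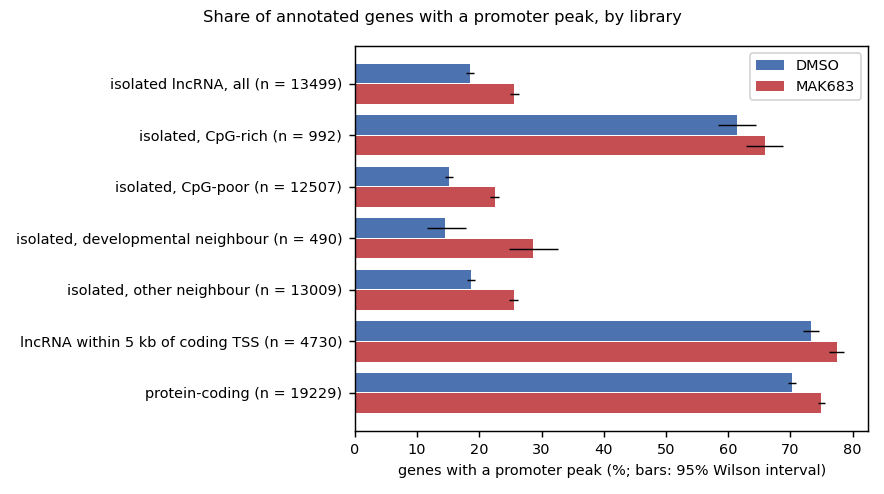
Share of annotated genes with a promoter peak (x axis, percent) in DMSO (blue) and MAK683 (red), for isolated lncRNA genes, their subgroups, lncRNA genes near a coding TSS and protein-coding genes. Error bars are 95% Wilson intervals, and among the groups drawn the separation between the libraries is widest for isolated genes next to a developmental transcription factor gene, at 14.5% and 28.6%.

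Promoters open in both libraries were richer in CpG than those open in 1 library. A promoter was called CpG-rich when the 250 bases on either side of the TSS had a GC content of at least 55% and an observed over expected CpG ratio of at least 0.65. Of the isolated genes, 992 were CpG-rich, and 61.5% of those had a peak in DMSO and 65.9% in MAK683. For the 12507 CpG-poor genes the shares were 15.1% and 22.5%. CpG-rich promoters made up 28.9% of the members open in both libraries, 4.57% of those open in MAK683 alone and 5.47% of those open in DMSO alone. They made up 3.25% of isolated genes with no peak and 62.9% of protein-coding genes. The median GC content followed the same order, with 56.5% for members open in both libraries, 48.1% for MAK683 alone, 48.9% for DMSO alone and 44.5% for genes with no peak. The groups open in 1 library alone were thus close to each other and to genes with no peak. The median log2 ratio was -0.42 (-0.45 to -0.38) at CpG-rich and -0.33 (-0.37 to -0.31) at CpG-poor members. CpG-rich members open in both libraries were also taller, with medians of 1.87 RPM in DMSO and 1.37 RPM in MAK683. CpG-poor members had 1.02 and 0.821 RPM, and what part height has in the ratios was not tested.

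Short motif strings were searched on both strands from 250 bases before the TSS to 50 after it, and none of the 8 strings holds another whole. GGGGCGGGG, the core bound by SP1, was found in 9.33% of members open in both libraries, in 2.18% of those open in MAK683 alone, in 2.95% of those open in DMSO alone and in 1.42% of isolated genes with no peak. It was in 24.6% of protein-coding promoters. CCGGAAG, the core of ETS factors, gave 7.0%, 2.46%, 3.58%, 2.34% and 14.1% in the same order, and the NRF1 site gave 4.02%, 0.28%, 0.21%, 0.48% and 8.41%. A core of the CTCF site was in 5.26% of members open in both libraries, 1.69% of MAK683 alone, 2.11% of DMSO alone, 1.20% with no peak and 2.77% of coding promoters. Among isolated genes, each of these 4 strings was most frequent in the members open in both libraries, the group with the highest GC content, and what part GC content has in this was not tested. TGANTCA, the AP-1 site, was found in 12.8% of the members open in MAK683 alone, 11.8% of those open in DMSO alone and 12% of genes with no peak, but in 8.44% of those open in both. AGATAA, the site of GATA factors, was in 15.9%, 12.4%, 18.0% and 10.3% of the same groups. CpG-rich members held the AP-1 string in 3.23% and the GATA string in 4.41%. Both strings were thus least frequent where GC content was highest, and what part GC content has in this was not tested. CCAAT was found in 32.8% of members and AANATGGC, a YY1 site, in 4.49%, against 38.1% and 6.52% of genes with no peak. Among members open in both libraries, the 106 with the CTCF string had a median log2 ratio of -0.26 and the 1908 without it -0.37. For the ETS string the values were -0.46 (141 genes) and -0.35 (1873 genes). SP1 gave -0.39 and -0.36, NRF1 -0.43 and -0.36, and AP-1 -0.41 and -0.36. CCAAT gave -0.41 and -0.34, YY1 -0.40 and -0.36, and GATA -0.36 and -0.37. These medians have no intervals, and what part height and CpG content have in them was not tested. The window of MIR181A1HG shown above holds the AP-1 string and CCAAT, and that of SNHG8 the SP1 string.

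The difference between the libraries was larger at longer distances from coding genes up to 300 kb, and smaller again beyond that. When the nearest coding TSS was 5 to 20 kb away, 28.6% of isolated lncRNA genes had a peak in DMSO and 31.4% in MAK683. At 20 to 50 kb the shares were 24.0% and 30.2%, at 50 to 100 kb 18.4% and 27.6%, and at 100 to 300 kb 10.9% and 23.3%. Beyond 300 kb they were 5.57% and 10.4%. Genes open in MAK683 alone numbered 1.35 for each gene open in DMSO alone in the first class, then 2.39, 3.73, 8.12 and 7.13. All regions at the same distances gave 1.11, 1.66, 2.82, 5.34 and 6.02, so higher ratios at longer distances were seen in the whole data too. Inside the body of a coding gene the ratio was 1.80 (418 and 232 genes), and outside coding genes it was 4.13 (1004 and 243 genes).

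**Figure D3:**
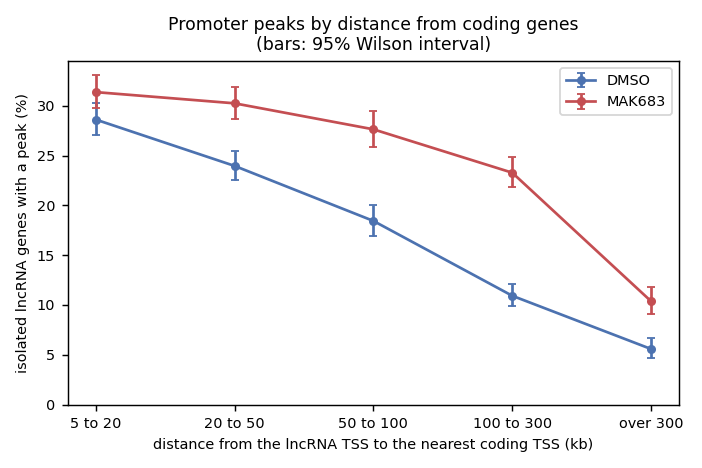
Share of isolated lncRNA genes with a promoter peak (y axis, percent) by the distance from the lncRNA TSS to the nearest coding TSS in kb (x axis), for DMSO (blue) and MAK683 (red). Error bars are 95% Wilson intervals, and the gap between the libraries is smallest at 5 to 20 kb, where the shares were 28.6% and 31.4%, and largest at 100 to 300 kb, where they were 10.9% and 23.3%.

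Chromosomes differed in the same way. On chromosomes 17, 19 and 22 more members were open in DMSO alone than in MAK683 alone, with 51 and 38, 21 and 11, and 22 and 13 genes. On each of the other chromosomes MAK683 alone was the larger group. All regions gave 0.54, 0.47 and 0.49 regions in MAK683 alone for each region in DMSO alone on chromosomes 17, 19 and 22.

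Promoters open in MAK683 alone made up a larger share of members next to developmental transcription factor genes than of other members. Gene families such as HOX, PAX, SOX, GATA, TBX and FOX were recognized by symbol, and 490 isolated lncRNA genes had one as their nearest coding gene. Of these, 71 had a peak in DMSO (14.5%, 95% Wilson interval 11.6 to 17.9) and 140 in MAK683 (28.6%, 24.8 to 32.7). For the other 13009 genes the shares were 18.6% (18.0 to 19.3) and 25.5% (24.8 to 26.3). Peaks in MAK683 alone were found at 75 and in DMSO alone at 6 of the 146 open genes, which is 51.4% (43.3 to 59.3) and 4.11% (1.90 to 8.68). The other neighbours gave 35.5% (34 to 37) and 12.3% (11.3 to 13.4). These shares count peaks of any height and were not recounted at a stricter threshold. With a -log10 q-value of at least 10, 216 of all members were open in MAK683 alone and 299 in DMSO alone. The distance to the coding gene was alike, with a median of 41.3 kb and 40.2 kb over the open genes. Regions of any kind more than 5 kb from a coding TSS showed the same direction, with 3272 in MAK683 alone and 712 in DMSO alone (ratio 4.60) when the nearest coding gene was a developmental transcription factor, and 73991 and 35908 (ratio 2.06) otherwise. The ratios of the lncRNA genes were 12.5 and 2.87.

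For the 65 genes of this group that were open in both, the ratio had a median of -0.27 (-0.46 to -0.01), against -0.37 (-0.39 to -0.34) at the 1949 others. The intervals overlapped. A higher MAK683 peak was seen at 35.4% (24.9 to 47.5) of the group and 21.3% (19.5 to 23.2) of the others. Over all regions more than 5 kb from a coding TSS and shared by both libraries, the shares were 32.8% and 26.8%. The median of the group was above 0 (0.08) when only genes with a symbol were counted, and also (0.06) when all ratios were centred on the median of all regions. At least 2-fold higher were 5 of the 65 genes (7.69%) and 18 of the others (0.924%), and at least 2-fold lower were 2 and 105. In the same regions, 2.76% with a developmental neighbour and 0.77% of the others were at least 2-fold higher, and 4.14% and 5.45% at least 2-fold lower.

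These 5 genes, named after their values were seen, lay near HAND1, EN2, FOXD4, NKX3-2 and MEIS1. ENSG00000254293, near the heart and limb regulator HAND1, had 7 tags in DMSO and 28 in MAK683 (log2 ratio 1.86). LINC01798, near the homeobox gene MEIS1, had 17 and 42 tags, a log2 ratio of 1.17 (95% counting interval 0.35 to 1.98). ENSG00000227917, near FOXD4, had 11 and 29 tags (log2 ratio 1.26). LINC03010, upstream of the midbrain and hindbrain gene EN2, and LINC01097, beside the skeletal homeobox gene NKX3-2, are described next. All 5 had low DMSO peaks of 7 to 17 tags.

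Other members beside such genes, also chosen after their values were seen, had smaller ratios. LINC02966, near the thyroid and kidney factor PAX8, had 13 and 23 tags (log2 ratio 0.69, -0.30 to 1.67). HAR1A and HAR1B, which start in the same peak, had 9 and 16 tags (0.69, -0.49 to 1.87). LINC01376, near OSR1, was the tallest of the group among genes with a symbol, with 59 and 51 tags (-0.35, -0.89 to 0.19). SFTA3, beside the lung and thyroid regulator NKX2-1, had 14 tags in MAK683 alone, as had LINC01690 near OLIG2, a factor of oligodendrocytes. The intervals of these 3 ratios held 0.

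The highest ratios among members with a symbol and at least 20 tags in a library were found at 6 genes. LINC01097 (chromosome 4, TSS at 13535959, minus strand) had 8 tags in DMSO, or 0.482 RPM (95% exact interval 0.208 to 0.950), and 21 tags in MAK683, or 1.15 RPM (0.712 to 1.76). Its log2 ratio was 1.25 (95% counting interval 0.08 to 2.43), the summits lay 10 and 130 bp from the TSS, and the nearest coding TSS, that of NKX3-2, was 10.2 kb away. MEF2C-AS2 (chromosome 5, TSS at 87971851, plus strand), an antisense transcript of the MEF2C locus, had 11 and 33 tags, or 0.663 RPM (0.331 to 1.19) and 1.81 RPM (1.24 to 2.54). Its log2 ratio was 1.45 (0.46 to 2.43), between summits 625 bp apart.

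LINC02764 (chromosome 11, TSS at 112426525) had 9 and 25 tags and summits 99 and 82 bp from the TSS, with a log2 ratio of 1.34 (0.24 to 2.44). Its nearest coding TSS was 295 kb away. LINC03010 (chromosome 7, TSS at 155174771) had 11 and 29 tags and a log2 ratio of 1.26 (0.26 to 2.26). PGM5P3-AS1 (chromosome 9, TSS at 72673) had 9 and 28 tags and a log2 ratio of 1.5 (0.42 to 2.58), and LINC02731 (chromosome 11, TSS at 133902612) had 9 and 29 tags and 1.55 (0.47 to 2.63). For the latter 3, the summits of the libraries were 993, 855 and 1989 bp apart, so that in 4 of these 6 genes the ratio compares different positions of the same promoter region.

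The lowest ratios were found at MUC20-OT1, LINC01165, LINC02977, FAM230E, LINC02043 and LINC01714. MUC20-OT1 (chromosome 3, TSS at 195435054) had 63 tags in DMSO, or 3.8 RPM (2.92 to 4.86), and 10 in MAK683, or 0.547 RPM (0.263 to 1.01), a log2 ratio of -2.79 (-3.76 to -1.83). Its DMSO peak was 5054 bp long with a summit 2948 bp from the TSS, and its MAK683 peak was 901 bp long with a summit 850 bp from the TSS. LINC01165 had 48 and 13 tags, LINC02977 52 and 15, and LINC02043 44 and 18, and their summits in both libraries were 2583, 1868 and 2854 bp apart.

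FAM230E, a member of a duplicated family on chromosome 22, had 29 and 9 tags (log2 ratio -1.83, -2.91 to -0.75), with summits 172 bp apart. The 101 bp at its DMSO summit had 5 exact matches in the genome, so the reads could come from several copies. LINC01714 on chromosome 1 had 26 and 11 tags with summits 320 bp apart, a log2 ratio of -1.38 (-2.40 to -0.36). 4 of the 6 lowest values thus compared summits more than 1 kb apart. Over all members open in both libraries, 379 (18.8%) had summits more than 500 bp apart.

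The tallest members were tall in both libraries. LINC01115 (chromosome 2, TSS at 740164) had the highest peak of those with a symbol, with 106 tags in DMSO, or 6.39 RPM (5.23 to 7.72), and 87 in MAK683, or 4.76 RPM (3.82 to 5.88). The summits were 4 bp apart. ROCK1P1, a pseudogene copy of the kinase gene ROCK1, had 66 and 67 tags. WASH2P had 69 and 55, GLIDR 67 and 57, LSP1P5 62 and 58, and LINC02453 61 and 50. The log2 ratios of these 6 ran from -0.47 to -0.12, all below 0, and the counting interval held 0 for each except LINC01115 (-0.83 to -0.01). The 101 bp at the DMSO summit of ROCK1P1 had 2 exact matches in the genome.

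Among members with a symbol, the tallest peaks listed in MAK683 alone belonged to EWSAT1 and LINC02151, with 28 tags each, or 1.53 RPM (1.02 to 2.22). EWSAT1, first described in Ewing sarcoma, lies on chromosome 15 (TSS at 69365266). LINC00461, a brain-expressed lncRNA of chromosome 5 (TSS at 87980625), had 22 tags, and FAM138D 21 tags. LINC02263, LINC01933, LINC03082, LINC01358 and MIR181A1HG had 20 tags each, or 1.09 RPM (0.669 to 1.69). The summits of LINC01933, MIR181A1HG and LINC02263 lay 4, 48 and 81 bp from the TSS, while those of the others lay 587 to 1841 bp away. The 101 bp at the FAM138D summit had 6 exact matches in the genome. No DMSO peak was listed for these 9 genes, and no fold was computed, since the files hold no value where no peak was called.

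LINC00461 and MEF2C-AS2 start within the same stretch of chromosome 5, about 100 to 110 kb from the nearest TSS of MEF2C, a transcription factor of muscle and neurons. The MAK683 peak of MEF2C-AS2 (87970016 to 87972193) was longer than its DMSO peak (87970544 to 87971362), and a separate MAK683 peak at LINC00461 spanned 87978575 to 87979882. A further lncRNA of this locus, ENSG00000250555, with a TSS at 87988468 and named after its value was seen, had a peak of 28 tags in MAK683 alone.

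In DMSO alone, the tallest peaks of members with a symbol were those of LINC01800 with 31 tags, or 1.87 RPM (1.27 to 2.65), LINC00525 with 23 and LINC00592 with 18. LINC02681, ARNILA, SCUBE1-AS2 and RUFY1-AS1 had 16 each, or 0.964 RPM (0.551 to 1.57). The summit of LINC00592 lay 2 bp from the TSS, and those of the other 6 lay 491 to 2084 bp from it. LINC02681 was the only one of the 7 next to a developmental transcription factor gene, LBX1.

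**Figure D4:**
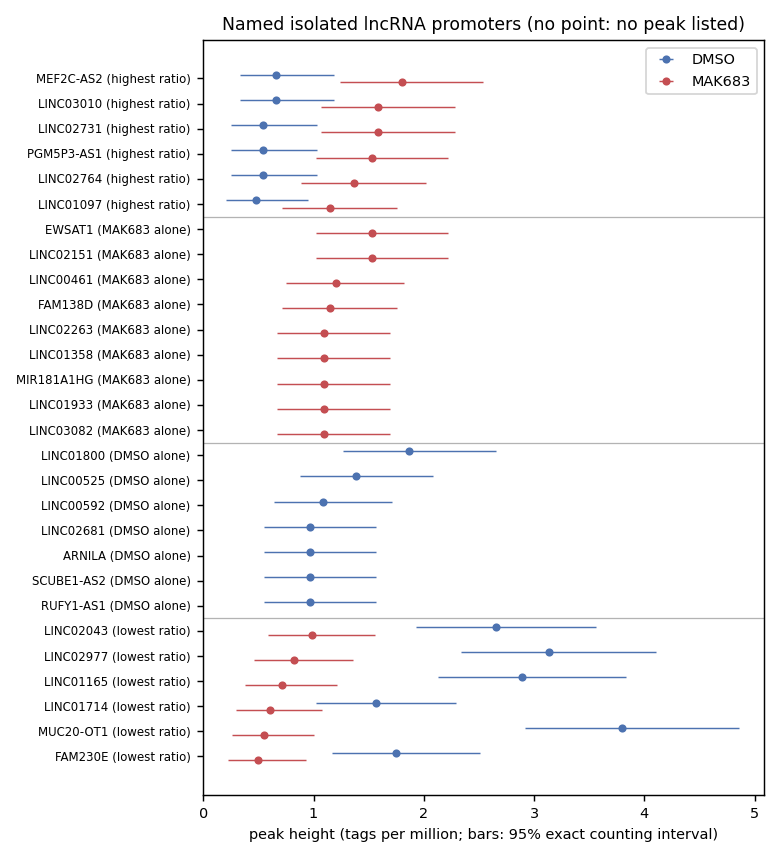
Peak height in RPM (x axis) of named isolated lncRNA promoters (y axis) in DMSO (blue) and MAK683 (red), with 95% exact counting intervals as bars. All are members with a symbol, and among those they have the 6 highest ratios, the tallest peaks in MAK683 alone, the tallest in DMSO alone and the 6 lowest ratios. A missing point means that no peak was listed. Genes open in MAK683 alone sit between 1.09 and 1.53 RPM, and MUC20-OT1 has 3.8 RPM in DMSO and 0.547 RPM in MAK683.

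LncRNAs listed as broadly expressed were lower in MAK683 wherever both libraries had a peak. The list was set by symbol, and how broadly its genes are expressed was not measured here. Of 40 symbols, 27 belonged to members, and 26 had a peak in both libraries. All 26 were lower in MAK683, with a median log2 ratio of -0.62. Tall regions of any kind were similar in direction, as 3.65% of those of 2 RPM and more were higher in MAK683 and their median was -0.50. Among the list members open in both libraries, 5 were at least 2-fold lower, and 9 had a counting interval below 0. Of all shared regions, 5.56% were at least 2-fold lower and 8.32% had an interval below 0. The list was tall, with median heights of 2.44 RPM in DMSO and 1.45 RPM in MAK683. By mean height, 9.38% of shared regions from 0.9 to 1.4 RPM were at least 2-fold lower, 7.15% from 1.4 to 2 RPM and 3.04% from 2 RPM. Intervals exclude 0 more easily at taller peaks. In the same classes of all members open in both libraries, 42 of 506, 85 of 424 and 107 of 319 had an interval below 0.

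SNHG7, a host of small nucleolar RNAs, had 20 and 9 tags (log2 ratio -1.29, -2.43 to -0.16). CHASERR, a regulator of its neighbour CHD2, had 45 and 21 tags (-1.24, -1.98 to -0.49), with summits 15 bp apart. SNHG16, another small nucleolar RNA host, had 35 and 17 tags (-1.18, -2.02 to -0.34). NEAT1, the scaffold of nuclear paraspeckles, had 44 and 23 tags (-1.07, -1.80 to -0.35), and its summits were 2586 bp apart. SNHG8, whose CpG-rich window is printed above, had 44 and 25 tags (-0.95, -1.66 to -0.25) with summits 41 and 47 bp from the TSS.

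The smallest differences on this list were those of SNHG17 (18 and 17 tags, -0.22) and LINC00662 (51 and 48 tags, -0.23), and their intervals held 0. MALAT1, which localizes to nuclear speckles, had 40 and 34 tags (-0.37, -1.03 to 0.29), and NORAD, which binds PUMILIO proteins, had 21 and 13 tags (-0.83, -1.83 to 0.17). The remaining member, the imprinted gene MEG3, had 11 tags in MAK683 and no listed peak in DMSO.

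MicroRNA host genes are lncRNAs named after the microRNAs cut from them. Of 77 such genes, 35 were members, and the hairpin of at least 1 microRNA was found by exact match within the GRCh37 span of 30 of the 35. Mature sequences from RefSeq (GRCh38.p14) are given for hosts described here, with bases 2 to 8, the seed that pairs with targets, in capitals.
hsa-miR-181a-5p (MIR181A1HG and MIR181A2HG): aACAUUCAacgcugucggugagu
hsa-miR-137-3p (MIR137HG): uUAUUGCUuaagaauacgcguag
hsa-miR-7-5p (MIR7-3HG): uGGAAGACuagugauuuuguuguu
hsa-miR-133a-3p (MIR133A1HG): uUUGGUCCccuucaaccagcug
hsa-miR-31-5p (MIR31HG): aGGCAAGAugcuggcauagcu
hsa-miR-34a-5p (MIR34AHG): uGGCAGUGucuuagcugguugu
hsa-miR-17-5p (MIR17HG): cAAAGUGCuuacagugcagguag
hsa-miR-9-5p (MIR9-1HG): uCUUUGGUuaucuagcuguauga
hsa-let-7a-5p (MIRLET7A1HG): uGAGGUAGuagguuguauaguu
hsa-let-7i-5p (MIRLET7IHG): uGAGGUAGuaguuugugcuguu
The seed of let-7a and let-7i was shared, and the other 8 seeds differed.

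A peak in both libraries was found at 25 hosts, in MAK683 alone at 8 (22.9%) and in DMSO alone at 1 (2.86%), against 35.9% and 12.1% of all members. The DMSO peak of the remaining host, MIR130AHG, did not meet the distance rule, and its MAK683 peak had 34 tags. Lower in MAK683 were 21 of the 25, with a median log2 ratio of -0.36, which is near that of all members. None passed 2-fold in either direction. The highest ratio was that of MIR31HG, with 10 tags in DMSO and 18 in MAK683 (0.71, -0.41 to 1.83). MIR31HG lies on chromosome 9 (TSS at 21559848), and its hairpin of miR-31 was found at 21512114 to 21512184, 47.7 kb from the TSS. MIR4300HG followed with 15 and 25 tags (0.60, -0.32 to 1.52). At the lower end were MIR34AHG, the host of the p53-induced miR-34a, with 24 and 15 tags (-0.82, -1.75 to 0.11), and MIR4435-2HG with 41 and 27 tags (-0.74, -1.44 to -0.04). The sequence at the summits of MIR4435-2HG had 2 exact matches in the genome.

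Both host genes of miR-181a were members, and their peaks were listed differently. MIR181A1HG had 20 tags in MAK683 and no listed peak in DMSO, and its hairpin of miR-181a lay 78.3 kb downstream of the TSS (chromosome 1, 198828173 to 198828282). MIR181A2HG had 27 tags in DMSO and 22 in MAK683 (-0.43, -1.25 to 0.38). In MAK683 alone, MIR137HG, whose hairpin of miR-137 began 24 bp from the TSS, had 8 tags, and MIR7-3HG, whose hairpin of miR-7 began 1.54 kb from the TSS, had 10 tags. MIR133A1HG, the host of the muscle microRNA miR-133a, had 10 tags in DMSO alone.

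The hosts of let-7a and let-7i were both lower in MAK683. MIRLET7A1HG had 39 and 33 tags (-0.38, -1.05 to 0.29) and MIRLET7IHG 45 and 37 tags (-0.42, -1.05 to 0.21). MIR17HG, which holds the hairpins of the oncogenic miR-17 cluster within 4 kb of its TSS, had 50 and 43 tags (-0.36, -0.94 to 0.23). MIR9-1HG, the host of the neural miR-9, had 46 and 36 tags (-0.49, -1.12 to 0.14). Each of these 4 intervals held 0.

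**Figure D5:**
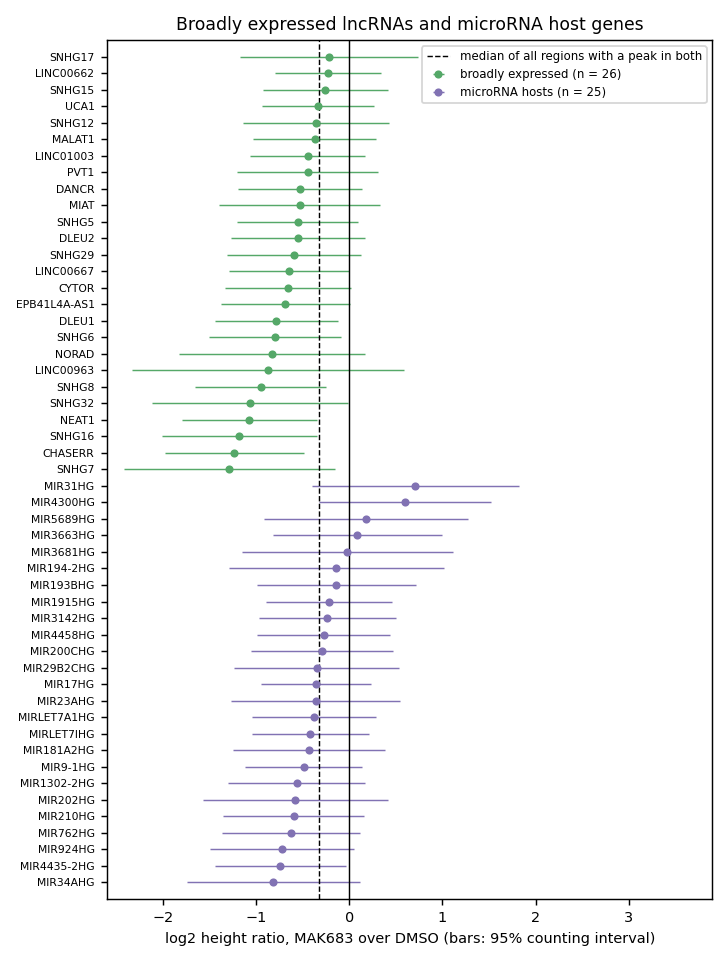
Log2 height ratio of MAK683 over DMSO (x axis) for the broadly expressed lncRNA genes (green, n = 26) and microRNA host genes (purple, n = 25) with a peak in both libraries (y axis). Bars are 95% counting intervals, the solid line marks 0 and the dashed line -0.33, the median of all regions shared by both libraries. All green points lie below 0, and 4 purple points lie above it.

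LncRNAs of developmental loci were rarely isolated. Of 54 symbols, 15 belonged to isolated genes and 8 were members. DLX6-AS1, an antisense transcript in the DLX5 and DLX6 locus of forebrain and limb, had 15 tags in MAK683 alone. SOX21-AS1 had 11 tags and SOX1-OT 8 tags in MAK683 alone, both next to SOX genes of neural progenitors. HAGLROS, in the HOXD cluster, and TBX2-AS1 each had 10 tags in DMSO alone. HOXD-AS2 had 22 and 13 tags (-0.90, -1.89 to 0.09), CARMN, a lncRNA of cardiac and smooth muscle, 16 and 14 tags (-0.33, -1.37 to 0.70) and LINC00472 17 and 24 tags (0.36, -0.54 to 1.26). This list held 3 members in MAK683 alone (37.5%) and 2 in DMSO alone (25%), all below 20 tags. Over all members the shares were 35.9% and 12.1%. The ratio of 1.5 on this list was below the 2.97 of all members. It was also below the 12.5 of genes next to a developmental transcription factor gene.

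Imprinted lncRNAs had 3 members. KCNQ1OT1, which silences the KCNQ1 domain from the paternal allele, had 15 and 16 tags (-0.04, -1.06 to 0.97). PEG13 had 22 and 23 tags (-0.07, -0.92 to 0.77), and MEG3 is given above. Of the lncRNAs linked to senescence or p53, 7 were members and 6 had a peak in both libraries. Of these, 5 were lower in MAK683, as were 1581 of the 2020 members open in both. They included NEAT1 and MIR34AHG, and MIR3142HG had 31 and 29 tags (-0.23, -0.96 to 0.50). MIR31HG was the one with a higher MAK683 peak.

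Members were also looked up by their nearest coding gene among those on which the study centred, such as the senescence and matrix genes. 12 members had such a gene as nearest coding gene, and 9 of them had a peak in MAK683 alone, 1 in DMSO alone and 2 in both. Over all members the shares in 1 library alone were 35.9% and 12.1%. MAK683 alone made up 21.8% of open isolated lncRNA genes 5 to 20 kb from a coding TSS, and 56.3% at 100 to 300 kb. Over all regions, shared only where peaks overlapped, the values at these distances were 37.8% and 70.7%. The members of this group differed in distance, and some shared a nearest coding gene, GATA3 or COL4A1. CDKN2A-DT, the divergent transcript beside the p16 gene CDKN2A, had 10 tags in MAK683 alone. Its TSS lay 4.40 kb from a coding TSS and the peak met the distance rule. MMP2-AS1, 16.9 kb from the TSS of MMP2, had 11 tags in MAK683 alone, and LINC03082, 178 kb from that of COL4A1, had 20. With GATA3 as nearest coding gene, 127 to 346 kb away, ENSG00000226861, ENSG00000226990 and ENSG00000289897 had 10, 11 and 7 tags in MAK683 alone, and LINC00708 had 9 and 13 tags (log2 ratio 0.39). HAGLROS near HOXD1 was the one open in DMSO alone. Both members of this group with a peak in both libraries had intervals that held 0. The highest peak was that of ENSG00000287575, whose nearest coding gene was COL4A1, with 21 tags in MAK683 alone.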

How the data were processed

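ATAC-seq peaks of G401 cells were analysed, with 1 library per group. Per the labels and methods, the authors trimmed 150-base paired reads, aligned them to hg19 with Bowtie2 and called peaks with MACS. The deposited file headers name MACS 2.1.1.20160309 with a shift of -100, an extension of 200, no control and a q-value cutoff of 0.05, while the labels list MACS2 2.1.0 and 2.2.7.1. The deposited pileup is a signal in tags. The authors also deposited p-values and q-values as -log10, and a fold enrichment ratio, used for thresholds and alternatives. Pileup was divided by the tags after filtering and multiplied by 1000000. Genes came from GENCODE 44 lifted to GRCh37. A gene's TSS was the 5′ end of 1 transcript, the Ensembl canonical one, or else a basic one, or else the longest. Distances to coding genes used the TSSs of all their basic transcripts. Regions were overlapping peaks merged over both libraries. Counting intervals were exact binomial for heights, from tags out of all tags after filtering, and normal on the log2 scale for ratios. They cover counting error only. Named genes were the 6 highest and 6 lowest ratios and the 6 tallest of members with a symbol (ratios only with at least 20 tags in a library), genes that share a peak counted once, the 5 tallest in each library alone with ties, and the 2 highest and lowest of each list. Others named were chosen after their values were seen. Members and lists were chosen with earlier results of these data known. The share of soft-masked sequence was not computed, since the genome used here had no lower-case bases. Scripts were tested on simulated data. Python 3.11.15, pandas 2.3.3, scipy 1.17.1 and blastn 2.17.0 were used. Some items withheld for evaluation are not reported here.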

Additional observations from a re-analysis of the deposited data

How the results depend on the processing

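With 1 library per group, no alternative tests the treatment. No paired analysis was possible because each group had 1 library. Alternatives on summits within 500 bp and without repeated summit sequence were chosen after seeing the data. Of the main values, 71 moved by less than their limit and 28 by more. With a 3 kb window the median log2 ratio was -0.31 and 41 members were at least 2-fold higher. With a -log10 q-value of at least 5, 2184 members had a peak in MAK683, 590 of them alone, and 7 were at least 2-fold higher. With at least 10, the numbers were 1387 in DMSO, 1319 in MAK683, 216 in MAK683 alone and 299 in DMSO alone, the median was -0.40, and 2 were at least 2-fold higher and 40 lower. With at least 0.5 RPM, 767 were open in MAK683 alone and 12 were at least 2-fold higher. Among genes with a symbol, 839 had a peak in DMSO, 1134 in MAK683, 409 in MAK683 alone and 125 in DMSO alone, and 11 were at least 2-fold higher and 32 lower. Raw tags gave a median of -0.23 with 36 higher and 68 lower, and fold enrichment gave -0.30 with 68 lower. Centred ratios gave -0.033 with 75 higher and 24 lower. The median beside developmental factors was above 0 among genes with a symbol (0.081) and when centred (0.060). Members in MAK683 alone per member in DMSO alone ranged from 0.722 to 3.79, against 2.97. The cause of these moves was not tested. Peaks of 6 to 10 tags limit what can be said of promoters open in 1 library.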
